A study of Mus musculus with 9 samples.

Results

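The 10 genes described here, all of the Notch2 pathway, were followed across splenic follicular (FO), IgD low (BDL) and marginal zone (MZ) B cells of the mouse. They were taken by symbol, and each of the 10 genes (Notch1, Notch2, Adam10, Mfng, Lfng, Rbpj, Dtx1, Hes1, Hes5 and Nrarp) had 1 row among the 24459 rows of the deposited expression table. RNA-seq was available for 9 libraries, 3 per subset, from untreated mice of 8 to 10 weeks of age. Spleens of 5 mice were pooled for each sort, B cells were enriched by negative selection, and the subsets were then sorted by flow cytometry. FO B cells were sorted as B220+IgMintCD21intCD23+CD93- cells with high IgD, BDL were the IgD low cells of the same gate, and MZ B cells were sorted as B220+IgMhiCD21hiCD23-CD93- cells. No transgene, deletion or treatment is named for any group. The sample labels give the strain as C57/BL6, whereas the study's methods name B10.PL mice for the sequencing. The sample titles carry 3 dates, each shared by 1 library of every subset, and libraries of the same date have the same replicate number here.

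Notch receptors are cut by the protease ADAM10 after they bind a Delta or Jagged ligand on a neighbouring cell. The gamma-secretase complex then frees the intracellular part, which enters the nucleus, joins the DNA-binding protein RBPJ and the Mastermind coactivators, and switches on targets such as the Hes repressors, Dtx1 and Nrarp. Fringe glycosyltransferases add a sugar to the receptor and so alter its response to ligand. In the spleen, signalling through Notch2 upon contact with Dll1 is required for MZ B cells to form, and Dtx1 is a known target of it in these cells. The 10 genes were compared to describe how far the receptor, its modifiers and its targets were set alike or apart in BDL, FO and MZ B cells.

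All values are FPKM, fragments per kilobase of transcript scaled to the mapped fragments of the library, so that levels may also be compared between genes. Tests used limma on log2(FPKM + 0.1), fitted across the 11597 rows whose mean reached 0.5 FPKM, and a gene was called where it changed 2-fold or more with a Benjamini-Hochberg adjusted p below 0.05. All adjusted p-values below come from that fit unless another is named, and fold changes on this scale understate the change of genes near 0.1 FPKM. The 10 genes all passed the minimum and had a mean above it in each subset. Column sums lay between 446033 and 517208 FPKM, and the depth read from the steps between low values ranged from 0.9 to 1.228 times that of FO replicate 1.

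The sort markers followed the gates in part. Cr2, which encodes CD21, lay between 400 and 505 FPKM in MZ, 136 and 150 in FO and 97.8 and 115 in BDL libraries. Fcer2a, which encodes CD23, lay between 26.0 and 34.5 FPKM in MZ and between 389 and 538 in the other libraries. Cd93 was at 10.2 to 15.9 FPKM in BDL although that gate excluded CD93+ cells, at 3.10 to 5.29 in FO and at 1.12 to 1.74 in MZ libraries. By flow cytometry the paper also reports more surface CD93 on BDL than on FO and MZ B cells, and it describes BDL as CD93 intermediate. Ptprc, which encodes B220, lay between 214 and 368 FPKM throughout. The B cell markers Ms4a1, Cd79a, Cd79b and Pax5 all passed the minimum, and 0 of 6 T cell markers did. Of 6 myeloid markers 4 passed, and their summed level was 6.07 to 9.80 FPKM in FO, 16.7 to 22.0 in BDL and 46.8 to 54.6 in MZ libraries. Mpeg1 made up most of it in MZ, at 43.2 to 47.8 FPKM. Emr1 was highest in BDL, at 3.13 to 3.88 FPKM against 0.536 to 0.886 in the other subsets, and Itgam lay at 0.659 to 0.881 in FO, 1.25 to 1.82 in BDL and 1.67 to 2.02 in MZ. Lyz2 reached 3.25 FPKM, Csf1r 0.626 and Cd14, at 0 in some FO libraries, 0.125. Of the plasma cell markers, Sdc1 lay at 6.86 to 9.58 FPKM in BDL, 1.22 to 1.67 in FO and 0.114 to 0.289 in MZ. The others did not share this order. Prdm1 lay at 3.50 to 5.41 in MZ and 0.725 to 1.18 in BDL, and Irf4 at 200 to 270 in MZ and 101 to 180 in BDL. The plasma cell list summed to 186 to 223 FPKM in FO, 128.5 to 206.7 in BDL and 224 to 296 in MZ. Of the erythroid markers, Hbb-b1 lay at 5.13 to 6.42 in BDL and 1.20 to 2.97 elsewhere, but Hba-a1 at 1.08 to 1.57 in BDL and 1.43 to 2.34 in MZ. The erythroid list summed to 1.98 to 4.31 FPKM in FO, 7.05 to 8.10 in BDL and 3.10 to 5.62 in MZ. The part of these markers in the differences below was not tested. In bulk RNA of this kind, fewer cells that express a gene and less of its RNA per cell cannot be told apart.

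Between MZ and FO B cells, 4 of the 10 genes were called, beside 8.92% of all rows tested. Dtx1, Hes1 and Hes5 were higher (3 of 10, beside 5.54%) and Lfng was lower in MZ B cells (1 of 10, beside 3.39%). By adjusted p alone 5 of 10 passed, beside 27.1%. The 3 libraries of MZ did not overlap those of FO for 8 of the 10 genes, beside 46.1% of all rows, with 6 higher (beside 23.6%) and 2 lower (beside 22.5%). The median difference of the 10 genes was 0.27 on the log2 scale, and that of all rows was -0.0087.

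Between BDL and FO B cells 1 of 10 was called, beside 1.91% of all rows. It was Nrarp, lower in BDL (beside 0.267%), and limma called 0 of 10 higher (beside 1.64%). At an unadjusted p under 0.05, 2 of 10 were higher (Adam10 and Hes5, beside 17.5% of all rows) and 5 of 10 lower (Notch2, Mfng, Lfng, Hes1 and Nrarp, beside 6.87%). This looser cut was applied to this comparison only. By adjusted p alone 2 of 10 passed, beside 7.73%. For 6 of 10 the libraries did not overlap, beside 34.8%, with 2 higher (beside 24.4%) and 4 lower (beside 10.3%) in BDL. The median difference was -0.19, against 0.048 for all rows.

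Between BDL and MZ B cells 4 of 10 were called, beside 7.8% of all rows. Lfng was higher (1 of 10, beside 3.47%) and Dtx1, Hes1 and Hes5 were lower in BDL (3 of 10, beside 4.34%). By adjusted p alone 6 of 10 passed, beside 28.1%. Here 7 of 10 did not overlap, beside 38.9%, with 1 higher (beside 22.6%) and 6 lower (beside 16.4%), and the median difference was -0.38 against 0.057. The 3 comparisons share libraries pairwise and are not independent of each other.

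**Figure D1:**
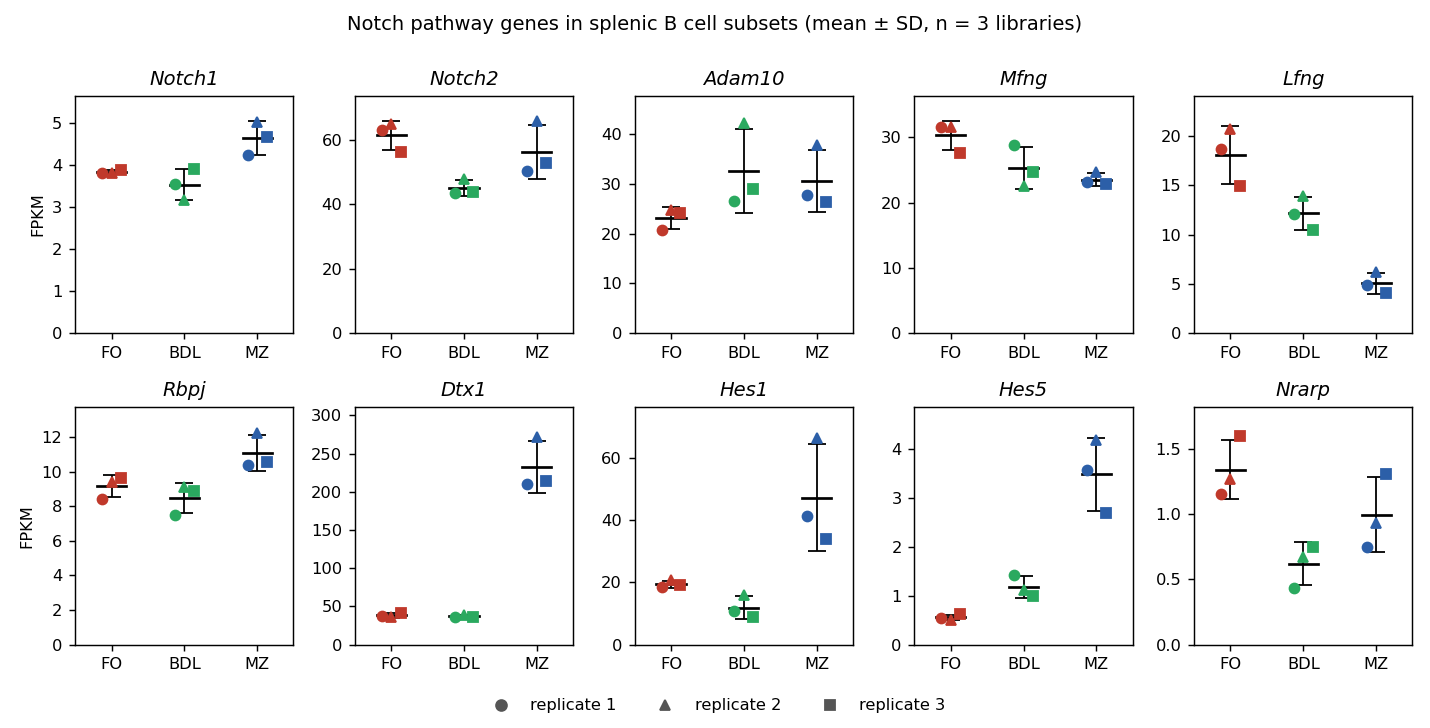
FPKM (linear axes from 0) of the 10 genes in FO, BDL and MZ libraries. Symbols are single libraries, their shape gives the replicate number (the date in the titles), and bars are the mean ± SD of 3 libraries. Dtx1, Hes1 and Hes5 stand highest in MZ, while the Dtx1 means of BDL and FO are 37.2 and 38.2 FPKM.

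The promoters of the target and modifier genes whose level differed most are shown because their letters can be set beside the expression values. The windows run from 250 bases before to 50 bases after the RefSeq transcript start on GRCm38.p6, a later build than the mm9 of the expression table, and 8 of the 10 genes were matched there, with 9 promoters, not including Hes1 and Mfng. The core letters of the RBPJ motif, TGGGAA, and the longer form GTGGGAA that contains them were searched on both strands. TGGGAA occurred in 25.6% of 32851 promoters of this length, GTGGGAA in 6.38%, and GTGGGAA on each strand in 0.1%. Capitals mark TGGGAA or its reverse complement. Hes5 (chr4:154960673-154960972, plus strand) held GTGGGAA starting 83 bases before the start and, on the opposite strand, 226 bases before it. Lfng (chr5:140607091-140607390, plus strand) held GTGGGAA at 109 bases and TGGGAA on the opposite strand at 135 bases before the start. Dtx1 (chr5:120711620-120711919, minus strand), the gene with the largest difference among the 10, had neither form in this window.
Hes5: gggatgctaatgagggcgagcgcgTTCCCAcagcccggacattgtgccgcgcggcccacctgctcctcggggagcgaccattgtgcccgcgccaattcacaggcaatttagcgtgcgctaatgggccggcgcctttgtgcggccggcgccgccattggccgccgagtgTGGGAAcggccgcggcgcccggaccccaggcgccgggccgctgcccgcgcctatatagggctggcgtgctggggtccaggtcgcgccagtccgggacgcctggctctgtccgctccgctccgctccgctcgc
Lfng: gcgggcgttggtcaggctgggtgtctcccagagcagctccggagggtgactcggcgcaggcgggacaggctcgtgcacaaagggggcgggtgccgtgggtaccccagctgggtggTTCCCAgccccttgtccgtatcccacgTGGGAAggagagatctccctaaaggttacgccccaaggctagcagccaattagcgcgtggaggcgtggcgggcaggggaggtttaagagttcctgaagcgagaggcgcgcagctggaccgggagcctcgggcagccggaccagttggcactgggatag
Dtx1: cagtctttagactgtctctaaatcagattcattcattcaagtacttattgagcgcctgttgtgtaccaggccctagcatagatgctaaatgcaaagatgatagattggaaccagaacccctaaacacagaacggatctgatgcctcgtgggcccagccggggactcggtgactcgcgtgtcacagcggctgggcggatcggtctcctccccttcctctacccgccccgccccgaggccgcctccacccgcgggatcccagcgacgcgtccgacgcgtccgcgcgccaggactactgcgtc
Rbpj held TGGGAA in each of its windows, which overlap. The match 205 bases before the start in the later window is the site at 65 bases in the earlier. The windows of Notch1, Notch2, Adam10 and Nrarp held neither form. A match describes letters only, and its absence from 300 bases says nothing of sites elsewhere.

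Notch2 (chr3:97817461-97954290 on NCBIM37, the assembly of mm9, plus strand) was the main Notch receptor transcript in all 9 libraries. Its FPKM in replicates 1 to 3 was 63.1, 64.8 and 56.4 in FO, 43.5, 48.0 and 43.8 in BDL and 50.3, 65.8 and 52.8 in MZ B cells. The BDL libraries were below every FO and MZ library, whereas FO and MZ overlapped. The means were 61.4 ± 4.45 in FO, 45.1 ± 2.53 in BDL and 56.3 ± 8.34 in MZ (SD, n = 3). Between MZ and FO the difference was -0.13 on the log2 scale (95% CI -0.40 to 0.13, adjusted p = 0.456), and MZ was the lower in 2 of 3 same-date pairs. Between BDL and FO it was -0.44 (SE 0.117, 95% CI -0.71 to -0.18), which just missed the threshold with an adjusted p of 0.0566 and passed it at 0.0167 with the date as a replicate block. Between BDL and MZ it was -0.31 (95% CI -0.58 to -0.04), with an adjusted p of 0.0820 and, with the block, of 0.0237, and it was -0.19 without MZ replicate 2. Neither difference reached 2-fold.

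Notch1 (chr2:26313423-26372183, minus strand), the receptor best known from T cell development, was expressed at a fraction of the level of Notch2. The FO libraries lay at 3.81, 3.80 and 3.89 FPKM, BDL at 3.55, 3.16 and 3.90, and MZ at 4.23, 5.03 and 4.67. MZ libraries stood above all others, by 0.27 over FO (adjusted p = 0.0846), and the log2 difference of BDL from MZ was -0.38 (95% CI -0.61 to -0.16, adjusted p = 0.0222), under 2-fold. The spans of 2 noncoding genes on the other strand overlap that of Notch1 in GENCODE M1, and whether exons are shared was not examined. The labels describe reads that are not strand specific, whereas the methods name a stranded kit. Without strand, any shared reads cannot be told apart. The ratio of Notch2 to Notch1 averaged 16.0 in FO, 12.9 in BDL and 12.1 in MZ libraries. Notch2 made up 94.0% ± 0.509 of the summed FPKM of the 4 receptors in FO, 92.6% ± 1.03 in BDL and 92.2% ± 0.539 in MZ (SD, n = 3). Notch3 stayed at or below 0.00778 FPKM and Notch4 at or below 0.1004 FPKM in every library.

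Adam10 (chr9:70526804-70628036, plus strand) encodes the protease that makes the first cut of the bound receptor. Its level was 20.6, 24.7 and 24.2 FPKM in FO, 26.6, 42.3 and 28.9 in BDL and 27.7, 37.7 and 26.4 in MZ B cells. Each FO library was below every BDL and MZ library, and replicate 2 was the highest of its subset in all 3 subsets. The fitted difference was 0.46 for BDL over FO (95% CI 0.0049 to 0.92, adjusted p = 0.201) and 0.39 for MZ over FO (95% CI -0.07 to 0.84, adjusted p = 0.202). With the date as a block the adjusted p-values were 0.0369 and 0.0383, and without BDL replicate 2 the first difference was 0.26. Without MZ replicate 2 the difference of MZ over FO was 0.23. BDL and MZ overlapped, with a difference of 0.08 (95% CI -0.38 to 0.54) that became -0.028 under upper quartile scaling and -0.073 under quantile normalization.

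The fringe genes differed from each other in how they were set. Lfng (chr5:141083295-141091497, plus strand) lay at 18.6, 20.7 and 14.9 FPKM in FO, 12.1, 13.9 and 10.5 in BDL and 4.87, 6.23 and 4.09 in MZ B cells. The 3 ranges were separate, with FO highest, BDL between and MZ lowest. Lfng was 3.54-fold lower in MZ than in FO (log2 difference -1.82, SE 0.183, adjusted p = 1.671e-04) and 2.39-fold higher in BDL than in MZ (1.26, SE 0.183, adjusted p = 0.00152). The step from FO to BDL was -0.57 (95% CI -0.99 to -0.15, adjusted p = 0.102, and 0.00423 with the block).

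Mfng (chr15:78586312-78603905, minus strand), which encodes Manic fringe, was the more abundant fringe in every library. Its values were 31.6, 31.6 and 27.7 FPKM in FO, 28.9, 22.6 and 24.6 in BDL and 23.1, 24.6 and 22.9 in MZ B cells. MZ lay below FO without overlap, with a log2 difference of -0.36 (SE 0.106, adjusted p = 0.0367), which is under 2-fold. BDL overlapped both, and its difference from MZ, 0.10, became -0.0065 under upper quartile scaling and -0.012 under quantile normalization. Rfng lay between 5.61 and 9.42 FPKM in all libraries. Lfng thus formed 31.6% ± 1.95 of the fringe sum in FO, 27.0% ± 5.21 in BDL and 14.0% ± 2.14 in MZ (SD, n = 3), and the sum itself averaged 57.0, 45.4 and 36.0 FPKM.

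**Figure D2:**
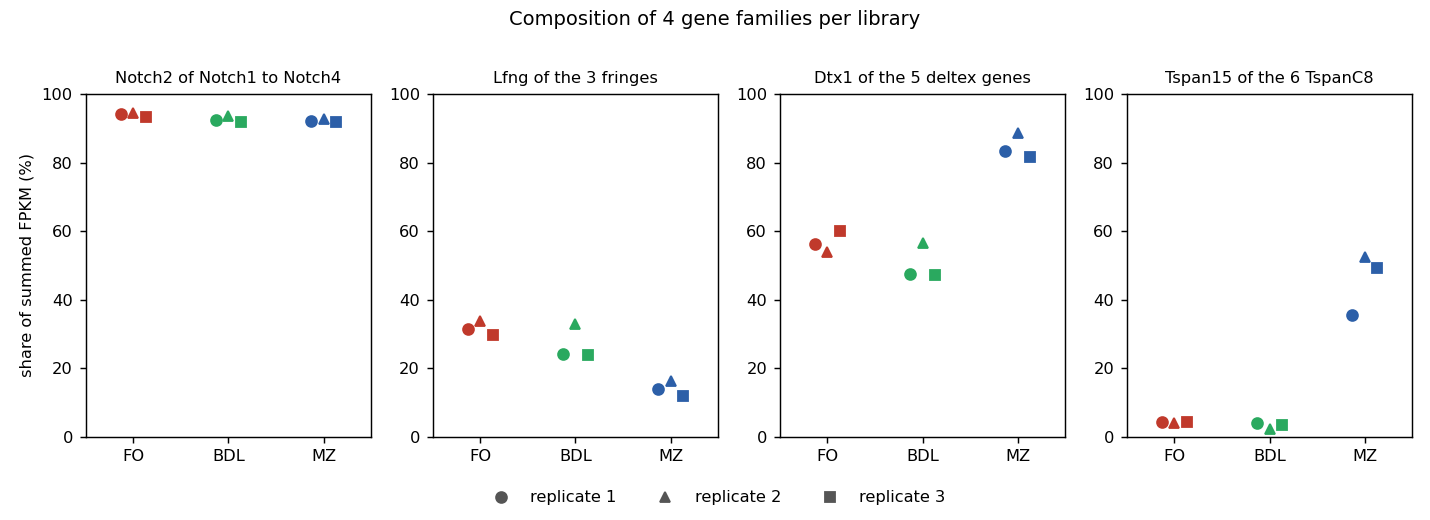
Share (%, axes from 0 to 100) of Notch2 in the 4 Notch receptors, of Lfng in the 3 fringes, of Dtx1 in the 5 deltex genes and of Tspan15 in the 6 TspanC8 tetraspanins, by library, with the replicate as symbol shape. The receptor panel is nearly level, whereas MZ stands apart from FO and BDL in the other panels, as with 45.8% Tspan15 in MZ against 4.13% in FO.

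Rbpj (chr5:53947018-54048684, plus strand), the DNA-binding partner of the cleaved receptor, lay at 8.42, 9.43 and 9.66 FPKM in FO, 7.50, 9.11 and 8.88 in BDL and 10.4, 12.3 and 10.5 in MZ B cells. MZ libraries were above all others, and FO and BDL overlapped. The difference of BDL from MZ was -0.38 (SE 0.107, adjusted p = 0.0308), under 2-fold, and that of MZ from FO was 0.27 (95% CI 0.02 to 0.51, adjusted p = 0.104, and 0.0230 with the block).

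Dtx1 (chr5:121130211-121161936, minus strand), which encodes the E3 ubiquitin ligase Deltex, was the most abundant of the 10 transcripts in MZ B cells. Libraries of MZ read 210, 271 and 215 FPKM, those of FO 37.5, 35.4 and 41.7, and those of BDL 36.3, 38.8 and 36.5. MZ was far above the others, and BDL lay inside the FO range. MZ exceeded FO by 6.03-fold (log2 difference 2.59, SE 0.116, 95% CI 2.33 to 2.86, adjusted p = 2.526e-06), and the log2 difference of BDL from MZ was -2.63 (adjusted p = 3.416e-06). Between BDL and FO the difference was -0.036, with a 95% CI of -0.30 to 0.23, and without FO replicate 3 it was 0.028. Dtx1 formed 84.6% ± 3.64 of the summed deltex FPKM in MZ, 56.7% ± 3.01 in FO and 50.5% ± 5.24 in BDL libraries (SD, n = 3).

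Hes1 (chr16:30064470-30067882, plus strand), a transcriptional repressor and widely used readout of Notch signalling, lay at 18.4, 20.5 and 19.1 FPKM in FO, 10.8, 16.0 and 8.73 in BDL and 41.2, 66.4 and 33.8 in MZ B cells. The ranges were separate, with BDL lowest and MZ highest. The spread was wide outside FO, with a coefficient of variation of 5.65% in FO, 31.6% in BDL and 36.2% in MZ. MZ was above FO by 1.22 on the log2 scale (SE 0.276, adjusted p = 0.0122), and without MZ replicate 2 by 0.95 (adjusted p = 0.0260), which is under 2-fold. BDL was 3.93-fold lower than MZ (log2 difference -1.97, SE 0.276, adjusted p = 0.00121). Its difference from FO, -0.75 (95% CI -1.39 to -0.12), had an adjusted p of 0.139 and of 0.0269 with the block.

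Hes5 (chr4:154335032-154336480, plus strand), a repressor of the same family, was near the lower end of the range measured. Its values were 0.549, 0.507 and 0.617 FPKM in FO, 1.43, 1.11 and 1.0 in BDL and 3.56, 4.19 and 2.69 in MZ B cells, which stand for about 39 to 45, 80 to 104 and 221 to 288 fragments. The ranges were separate, with FO lowest and BDL between, the reverse of the Lfng order. MZ was above FO by 2.43 on the log2 scale (SE 0.194, adjusted p = 4.731e-05) and the difference of BDL from MZ was -1.48 (SE 0.194, adjusted p = 8.618e-04). BDL was above FO by 0.95 (SE 0.194, adjusted p = 0.0244), just under 2-fold on this scale, and was called without BDL replicate 3 (1.05, adjusted p = 0.0438) or with 0.01 added in place of 0.1 (1.06, adjusted p = 0.0197). Its adjusted p was above 0.05 without FO replicate 1 (0.0909), FO replicate 2 (0.0954), FO replicate 3 (0.0545) or BDL replicate 1 (0.0804), and with 1 added (0.0655). Thus BDL stood below FO for Hes1 and above it for Hes5. The span of an antisense transcript overlaps that of Hes5. Whether the 2 share exons was not examined, and without strand any shared reads cannot be told apart.

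Nrarp (chr2:25036278-25038850, plus strand) encodes an ankyrin repeat protein that is induced by Notch and dampens its signal. FO libraries read 1.16, 1.27 and 1.60 FPKM, BDL 0.433, 0.675 and 0.749, and MZ 0.745, 0.930 and 1.31. Replicate 3 was the highest in each subset, BDL were below all FO libraries, and MZ overlapped both. Unlike Dtx1, Hes1 and Hes5, this target was not higher in MZ than in FO (log2 difference -0.42, 95% CI -1.0 to 0.17, adjusted p = 0.277), and was the lower in 3 of 3 same-date pairs. The log2 difference of BDL from FO was -1.02 (SE 0.255, adjusted p = 0.0492), on about 63 to 128 fragments against 179 to 238. That call was lost on leaving out any of the 9 libraries except MZ replicate 3, with adjusted p-values up to 0.146, and the adjusted p was 0.00712 with the block. BDL was also below MZ in 3 of 3 same-date pairs (-0.60, adjusted p = 0.116, and 0.0139 with the block).

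**Figure D3:**
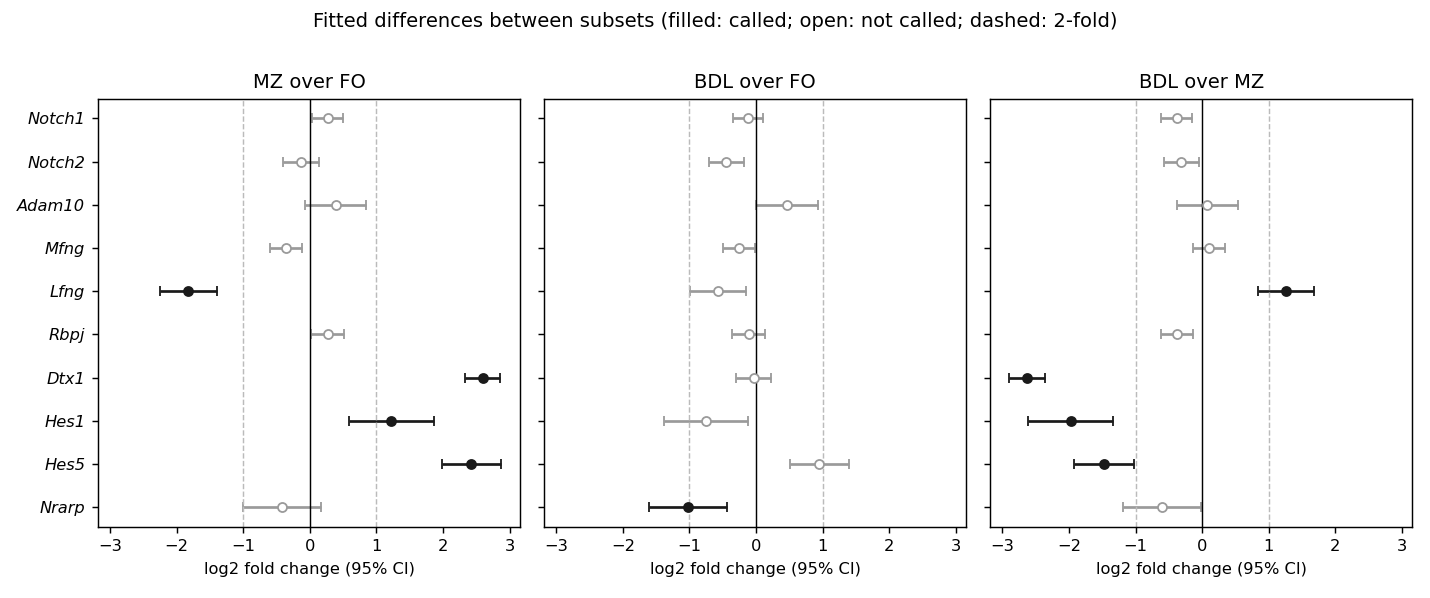
Log2 fold change (points) and 95% confidence interval (bars) of the 10 genes in the 3 comparisons, with filled points for called genes and dashed lines at 2-fold. Dtx1 lies near 0 for BDL over FO and beyond 2.5 in size in the other panels, and the Notch2 intervals stay within the 2-fold lines throughout.

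Libraries of the same date deviated together in some of these genes. Replicate 2 was the highest of its subset in all 3 subsets for 4 of the 10 genes (Notch2, Adam10, Lfng and Hes1), beside 21% of all rows tested. In Hes1 it stood 0.48 above the subset mean in BDL and 0.55 in MZ on the log2 scale. The same BDL and MZ libraries had the lowest Dtx3 of their subsets, as given below.

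**Figure D4:**
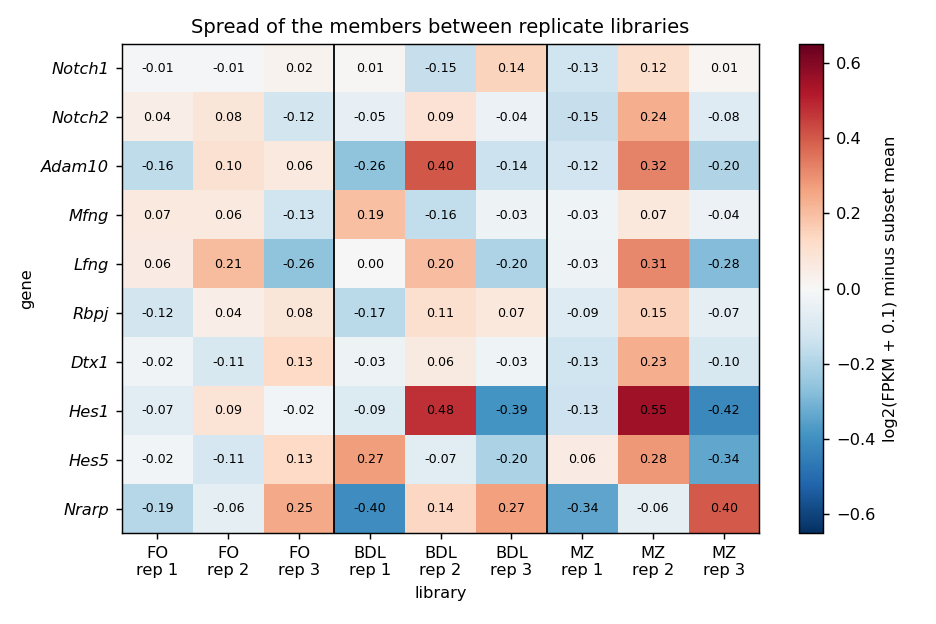
Deviation of each library from its subset mean on the log2(FPKM + 0.1) scale for the 10 genes, red above and blue below. Replicate 2 of BDL and of MZ is above the mean for Adam10 (0.40 and 0.32) and Hes1 (0.48 and 0.55), while Nrarp is highest in replicate 3 of every subset.

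Beyond the 10 genes, 55 other pathway genes were in the table and 36 reached the minimum. Between MZ and FO 4 of the 36 were called (11.1%, beside 8.92% of all rows), with Nedd4, Dtx4 and Aph1b higher and Maml3 lower in MZ. Between BDL and MZ 4 of 36 were called (11.1%, beside 7.8%), with Maml3 higher and Nedd4, Dtx4 and Aph1b lower in BDL. Between BDL and FO only Nedd4 was called among the 36 (2.78%, beside 1.91%), and it was higher in BDL. The median difference of the 36 was 0.02 for MZ over FO, 0.12 for BDL over FO and 0.078 for BDL over MZ, against -0.0087, 0.048 and 0.057 for all rows.

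Nedd4, an E3 ubiquitin ligase known to act on Notch among other substrates, lay at 7.18, 8.66 and 7.39 FPKM in FO, 24.8, 26.0 and 25.8 in BDL and 56.0, 67.7 and 55.5 in MZ B cells. The ranges were far apart, with BDL between. BDL exceeded FO by 1.71 on the log2 scale (adjusted p = 1.359e-04) and its difference from MZ was -1.22 (adjusted p = 8.629e-05). Dtx4, a deltex family ligase, averaged 1.01 ± 0.0757 FPKM in FO, 1.34 ± 0.173 in BDL and 3.68 ± 0.268 in MZ (MZ over FO 1.77, adjusted p = 2.547e-05). Maml3, a Mastermind coactivator, averaged 2.76 ± 0.0190, 3.04 ± 0.555 and 0.933 ± 0.0713 FPKM in FO, BDL and MZ (MZ over FO -1.47, adjusted p = 9.48e-05). Aph1b, a gamma-secretase subunit, averaged 0.513 ± 0.0720, 0.517 ± 0.102 and 1.48 ± 0.219 FPKM (MZ over FO 1.36, adjusted p = 0.00133). Its near-identical copy Aph1c was below the minimum, and how reads were split between them is not known. The differences of BDL from FO were 0.38 for Dtx4, 0.12 for Maml3 and 0.0019 for Aph1b, and none of them was called.

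No Delta or Jagged ligand reached the minimum, with 0 of 5 tested. Dll1, the ligand that splenic stromal cells present to MZ precursors, was the highest over the 9 libraries together, at 0.703, 0.821 and 0.649 FPKM in FO, 0.412, 0.291 and 0.369 in BDL and 0.101, 0.103 and 0.164 in MZ libraries. The ranges were separate in the order FO, BDL, MZ. In MZ the ligand gene Jag2, at 0.445, 0.295 and 0.455 FPKM, was above Dll1 in every library, and in BDL its mean was 0.350 FPKM against 0.357 for Dll1. In a fit without the minimum the log2 difference of MZ from FO was -1.89 (adjusted p = 1.673e-04) and that of BDL from MZ was 1.04 (adjusted p = 0.00368). Of 7 stromal and endothelial markers 1, Pecam1, passed the minimum, at 42.6 to 75.0 FPKM, and the summed level of the list was 63.8 to 75.2 FPKM in FO, 65.1 to 72.2 in BDL and 43.4 to 52.0 in MZ. Cdh5 lay at 0.203 to 0.244 FPKM in FO, 0.314 to 0.396 in BDL and 0.716 to 0.934 in MZ, Col1a1 and Col3a1 stayed at or below 0.00749, and Madcam1 was listed at 0 in every library. Their part in the Dll1 levels was not tested. The fit without the minimum also called Heyl, a further Hes-related target, higher in MZ than in FO (1.42, adjusted p = 3.93e-05) and lower in BDL than in MZ (-1.18, adjusted p = 1.138e-04). Its means were 0.0162 FPKM in FO, 0.0374 in BDL and 0.214 in MZ. Hey2 was called lower in BDL than in MZ (-1.03, adjusted p = 0.0115), on about 0 to 1 fragments against 8 to 28. FO was as low, at about 0 to 2 fragments, and MZ over FO just missed 2-fold (0.997, adjusted p = 0.0128). The RBPJ-like gene Rbpjl was called lower in MZ than in FO (-1.13, adjusted p = 0.00247).

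The most abundant gene of each remaining role was not called in any comparison. Psenen, a gamma-secretase subunit, averaged 82.8 FPKM over the 9 libraries, the corepressor Hdac1 71.3, the coactivator Ep300 36.0, the O-glucosyltransferase Poglut1 10.7 and the ligand ligase Mib2 6.59. Ep300 passed by adjusted p alone between MZ and FO (-0.42, adjusted p = 0.0214), and Hdac1 did so between BDL and MZ. Dtx3, the highest of the other deltex genes, showed a wide spread between dates. It lay at 10.5, 10.8 and 11.9 FPKM in FO, 18.6, 4.03 and 20.9 in BDL and 22.8, 10.9 and 31.0 in MZ, with replicate 2 lowest in BDL and MZ.

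**Figure D5:**
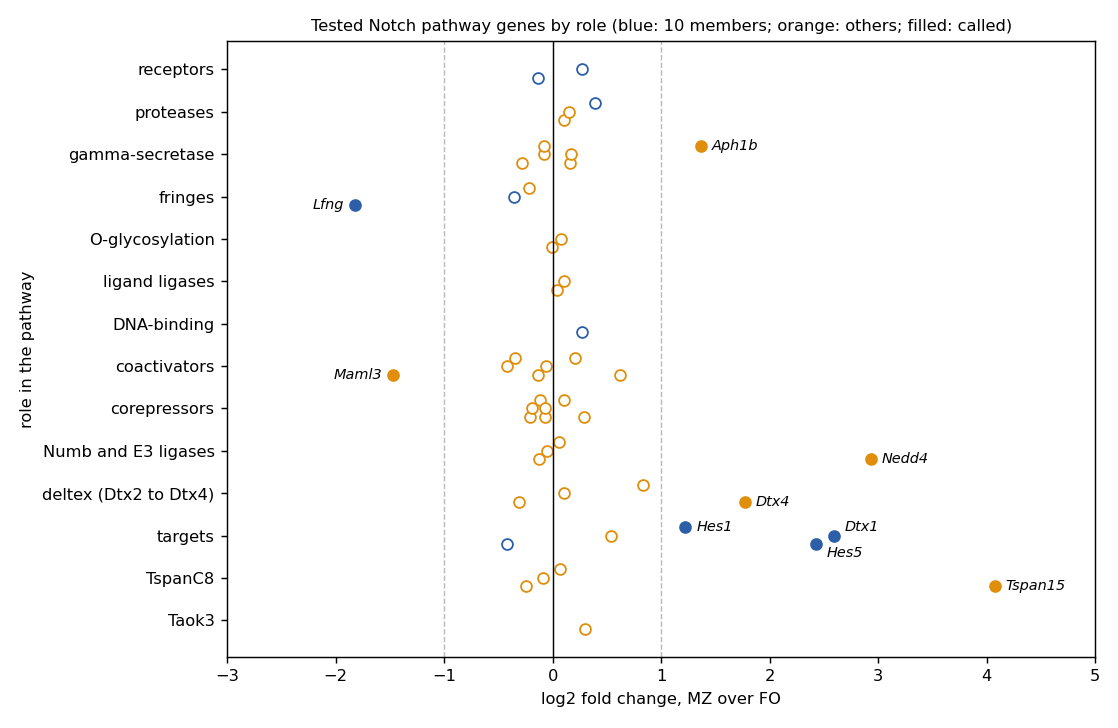
Log2 fold change of MZ over FO for the tested Notch pathway genes and ADAM10 regulators, grouped by role. Blue points are the 10 genes, orange points the others, filled points were called, and dashed lines mark 2-fold. Most genes lie within the dashed lines, and Tspan15 (4.07), Nedd4 (2.93) and Dtx1 (2.59) lie farthest to the right.

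ADAM10 leaves the endoplasmic reticulum with the help of TspanC8 tetraspanins, and the kinase Taok3 is known to promote its surface display on MZ precursors. Of these 7 genes 5 were tested and 1, Tspan15, was called for MZ over FO and for BDL over MZ (20%, beside 8.92% and 7.8% of all rows). Tspan15 lay at 1.03, 0.948 and 1.0 FPKM in FO, 1.15, 0.685 and 0.968 in BDL and 11.4, 24.6 and 21.7 in MZ B cells. BDL and FO overlapped at a low level, and every MZ library was above them. MZ exceeded FO by 4.07 on the log2 scale (SE 0.286, adjusted p = 2.466e-05) and the difference of BDL from MZ was -4.18 (adjusted p = 2.684e-05), the largest difference of any gene in these lists. Tspan14 was the most abundant of these tetraspanins in FO and BDL. In MZ it was below Tspan15 in replicates 2 and 3 and above it in replicate 1 (14.2 against 11.4 FPKM). Tspan14 averaged 16.5 ± 0.174 FPKM in FO, 21.9 ± 0.723 in BDL and 15.6 ± 1.16 in MZ. It was higher in BDL than in FO by 0.40 (adjusted p = 0.0178) and than in MZ by 0.49 (adjusted p = 0.00188), both under 2-fold. Taok3 averaged 30.7 ± 0.639, 30.3 ± 4.32 and 38.1 ± 5.19 FPKM (MZ over FO 0.30, adjusted p = 0.12).

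The rows most like Notch2 and Dtx1 across the 9 libraries were found by Pearson correlation on the log2 scale, as a description without a test, since the points share sorts and subsets. For Notch2 they were Tulp4 (r = 0.977), Dusp1 (0.969), Cep170b (0.965), H2-Oa (0.951) and Bin1 (0.948), each with its lowest mean in BDL. Dusp1, a phosphatase of MAP kinases, averaged 107 FPKM in FO, 70.1 in BDL and 105 in MZ. For Dtx1 they were Lair1 (r = 0.999) and Nod2, Zfp532, Srgap3 and Ube2e2 (each 0.998), all below 0.52 FPKM on average in FO and BDL and between 3.30 and 6.42 FPKM in MZ. Of these, Lair1 encodes an inhibitory collagen receptor and Nod2 a sensor of bacterial peptidoglycan.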

How the data were processed

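The labels name TopHat2 2.1.0, Cufflinks, Cuffdiff and mouse genome mm9. The authors deposited 1 FPKM value per gene and library, and these values were used as deposited. The Cufflinks version and the gene annotation are not given in the sources used here. The labels describe single-end libraries without strand, the methods a stranded kit. The authors' own table of comparisons (fold changes and p-values) was not used. For relative depth, 119 to 147 low FPKM values per library were taken as whole fragments. At the fitted depth, 70.9% to 78.8% of these values came within 0.1 of whole numbers. The fit used the same values, so the 20% expected by chance cannot serve as a test of it. Fragment numbers are approximate.

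The FPKM values were put on the log2 scale after adding 0.1 and fitted by limma 3.58.1 under R 4.3.3 (lmFit, contrasts and a trended eBayes) on all 9 libraries, with the subset as the only term. The fit was tested on simulated data. P-values measure the spread between these libraries. Called genes changed 2-fold or more with an adjusted p below 0.05. The members and lists were chosen with earlier results of these data known. Named are all 10 members, the other pathway genes and ADAM10 regulators called in any comparison, the most abundant gene of each role, the sort markers, and the 5 rows most like Notch2 and Dtx1. Genes below the minimum (Jag2 among them), Rfng, Notch3, Notch4, Aph1c and the members of marker lists were named in addition, after their values were seen.

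Libraries were paired by the date in their titles. The correlation over rows of same-date deviations from the subset means was 0.0238, 0.0138 and 0.0077 between MZ and FO for replicates 1 to 3, 0.147, 0.0491 and -0.0623 between BDL and FO, and 0.1, 0.244 and 0.182 between BDL and MZ. The methods name no block, which was therefore tried as an alternative. The others were 0.01 or 1 added, no minimum or a mean of at least 1 FPKM, the 6 compared libraries alone, quantile normalization, upper quartile scaling, an untrended eBayes, adjusted p alone, and each library left out. Gene positions are from GENCODE M1 on NCBIM37, promoters from RefSeq on GRCm38.p6. Python 3.11.15 with matplotlib 3.10.9 drew the figures. A marker gene is not reported here.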

Additional observations from a re-analysis of the deposited data

How the results depend on the processing

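Of 733 refits of 41 single gene differences, 707 kept their direction and their side of the threshold, 17 lost the call, 2 gained one and 7 changed sign, and 31 of the 41 differences kept theirs in every refit. Part of this was fixed beforehand. The block, the untrended fit, other minimums, the 6 compared libraries alone and leaving out a library of the third subset do not alter the fold change. There the sign could not change, and a gene under 2-fold could not gain a call. The tally also passes over shifts in adjusted p under 2-fold. Notch2 between BDL and FO kept its side in all 18 refits, with adjusted p from 0.0108 to 0.187, below 0.05 in 5 of them. With the date as a replicate block, the number of members called stayed at 4 for MZ versus FO, 1 for BDL versus FO and 4 for BDL versus MZ. No call of a member, Nedd4, Dtx4, Maml3, Aph1b or Tspan15 changed, although the adjusted p of Notch2, Adam10, Lfng and Hes1 between BDL and FO passed below 0.05. With the block the adjusted p stayed above 0.05 for Notch1 between MZ and FO (0.0684) and for Mfng between BDL and FO (0.104). For Dtx1 between MZ and FO the block raised it from 2.526e-06 to 3.249e-05. The count of members between BDL and FO, 1 in the fit reported, was 2 by adjusted p alone and with 0.01 added, and 0 with 1 added, without a minimum, at a mean of at least 1 FPKM (where Nrarp was not tested), with the 6 compared libraries alone and with quantile normalization. Leaving out libraries gave 0 to 1. By adjusted p alone, the other pathway genes called numbered 7 (MZ versus FO), 2 (BDL versus FO) and 8 (BDL versus MZ), and the ADAM10 regulators 1 between BDL and FO and 3 between BDL and MZ. With 1 added, 2 other pathway genes were called for MZ versus FO and 2 for BDL versus MZ, and without a minimum 7 in each. Over all rows, 1 added gave 406 higher and 268 lower for MZ versus FO, against 642 and 393, and 78 higher and 16 lower for BDL versus FO, against 190 and 31. The sign changed only where the difference was near 0: Dtx1 between BDL and FO (0.028 without FO replicate 3, and -0.090 to 0.028 over all libraries left out), Mfng between BDL and MZ (-0.0065 under upper quartile scaling and -0.012 under quantile normalization) and Adam10 between BDL and MZ (-0.028 and -0.073 under these, -0.12 to 0.24 on leaving out libraries). The cause of these shifts was not tested. Among the members the standard error was largest for Hes1 (0.276) and Nrarp (0.255), followed by Adam10 (0.200) and Hes5 (0.194). Of these, Hes5 and Nrarp were read from few fragments.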
